A study of Homo sapiens with 12 samples.

Results

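The 39 genes of the human HOX clusters were selected from the deposited counts by symbol alone (HOX, a cluster letter from A to D and a number), out of 19923 genes counted in each library. They comprised 11 HOXA, 10 HOXB, 9 HOXC and 9 HOXD genes, and every one of them was found. HOX genes encode homeodomain transcription factors that give cells their position along the head-to-tail axis, and in the neural tube and neural crest, from which neuroblastoma arises, they are switched on in nested domains. Genes at the low-numbered end of a cluster act towards the head and genes at the high-numbered end towards the tail, so that the set of HOX genes a cell transcribes, its HOX code, records the level it came from. Polycomb and Trithorax complexes keep that code, and MEIS and PBX proteins bind DNA together with HOX proteins.

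Polyadenylated RNA was sequenced from SK-N-BE2 and NGP, established cell lines from human neuroblastoma with amplified MYCN and a genotype labelled WT. Cells were grown for 6 days with STM2457, an inhibitor of the m6A methyltransferase METTL3, at 12 µM in SK-N-BE2 and 1 µM in NGP, or with DMSO, its solvent control. With 3 replicates in each of the 4 groups there were 12 libraries. Dose went with the line, and so did a grouping of the libraries in the file headers that may be a sequencing run. Neither can be told apart from the line. The labels do not say whether the replicates were separate cultures, so p-values measure the spread between these libraries, which may be technical. The counts were of reads from whole cultures, in which fewer cells of a type and less RNA per cell cannot be told apart.

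The libraries held 47242379 to 58159937 reads, of which 11530 to 18087 (0.0226% to 0.0342%) fell on HOX genes. In NGP, leaving out DMSO replicate 1 raised the number of genes of any kind called with STM2457 from 5671 to 7897, so HOX results of that line are also given without it where they change. The 8 markers of adrenergic neuroblasts summed to 1466 to 2569 CPM (counts scaled to the TMM-adjusted library total) in every library, with PHOX2A, HAND2 and GATA3 well detected. Of these markers TH was near 0 in NGP (0.512 ± 0.380 CPM with DMSO, SD, n = 3). The 6 mesenchymal markers summed to 183 to 237 CPM with DMSO and 700 to 741 CPM with STM2457 in NGP, and to 828 to 984 CPM over both groups of SK-N-BE2. Of the 5 fibroblast markers 4 were tested and called higher with STM2457 in each line. Their sum was 69.8 to 79.3 CPM with DMSO and 147 to 160 CPM with STM2457 in SK-N-BE2, and in NGP 159 to 176 CPM with DMSO and 317 to 361 CPM with STM2457. Schwann cell, endothelial and leukocyte markers summed to at most 2.66, 20.3 and 7.48 CPM in any library. The part of these marker levels in the HOX results was not tested.

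The clusters lie on 4 chromosomes (positions of the deposited files, GRCh38, counted from 1). HOXA spans chromosome 7 from 27093313 to 27200091 on the minus strand, HOXB chromosome 17 from 48528526 to 48729178 on the minus strand, HOXC chromosome 12 from 53938831 to 54056030 on the plus strand and HOXD chromosome 2 from 176092721 to 176190907 on the plus strand. HOXD13 lies at 176092721 to 176095944, HOXD9 at 176122719 to 176124937, HOXD8 at 176129694 to 176132695 and HOXC8 at 54008985 to 54012769. HOXA9 lies at 27162438 to 27175180, HOXA10 at 27170592 to 27180261 and HOXA13 at 27193503 to 27200091. Counts cover the exons of each gene, untranslated parts included. Members were classed by paralogue number as anterior (1 to 3, 8 genes), central (4 to 8, 15 genes) or posterior (9 to 13, 16 genes). Genes within a cluster overlap each other and antisense transcripts, and reads were counted without strand. Over 10% of the exon length was shared with another gene for 17 members, whose values are uncertain. Among the members described below these are HOXA3, HOXA4, HOXA6, HOXA7, HOXA9, HOXA10, HOXA11, HOXC4, HOXC5, HOXC6, HOXD1, HOXD3, HOXD8, HOXD10 and HOXD11. The share was 60.1% for HOXD1, 62.5% for HOXA7 and 24.4% for HOXD8, whereas HOXD4, HOXD9, HOXD13, HOXC8 and HOXA5 shared none.

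RefSeq promoter windows (GRCh38.p14, 250 bases before to 50 after a transcription start) were matched by symbol for 20 of the 39 members, 27 windows in all. The bases before the start are shown for 5 members called with STM2457 below, namely HOXD13, HOXA9 and HOXA13, which were called higher, and HOXD11 and HOXD8, which were called lower. Capitals mark the E-box CACGTG, which MYC proteins including MYCN bind, and the TATA box TATAAA, on either strand. They are chr2:176092471-176092720 (plus strand), chr7:27165538-27165787 (minus strand), chr7:27200092-27200341 (minus strand), chr2:176107030-176107279 (plus strand) and chr2:176129455-176129704 (plus strand), in the order printed, each written 5′ to 3′ along its gene.
HOXD13: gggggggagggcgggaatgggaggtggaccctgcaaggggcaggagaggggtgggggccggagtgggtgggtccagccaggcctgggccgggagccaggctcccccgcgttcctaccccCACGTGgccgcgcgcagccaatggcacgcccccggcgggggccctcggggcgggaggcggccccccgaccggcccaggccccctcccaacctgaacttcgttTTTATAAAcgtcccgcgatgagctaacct
HOXA9: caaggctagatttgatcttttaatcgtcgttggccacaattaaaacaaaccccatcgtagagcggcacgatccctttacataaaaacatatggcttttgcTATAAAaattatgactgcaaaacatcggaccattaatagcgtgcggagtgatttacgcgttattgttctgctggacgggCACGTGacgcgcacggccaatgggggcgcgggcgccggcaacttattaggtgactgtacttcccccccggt
HOXA13: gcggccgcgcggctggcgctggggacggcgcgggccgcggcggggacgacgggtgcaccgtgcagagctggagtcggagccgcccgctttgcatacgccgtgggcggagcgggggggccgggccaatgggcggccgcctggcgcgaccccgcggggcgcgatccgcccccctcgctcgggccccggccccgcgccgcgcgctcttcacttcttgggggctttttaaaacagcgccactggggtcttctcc
HOXD11: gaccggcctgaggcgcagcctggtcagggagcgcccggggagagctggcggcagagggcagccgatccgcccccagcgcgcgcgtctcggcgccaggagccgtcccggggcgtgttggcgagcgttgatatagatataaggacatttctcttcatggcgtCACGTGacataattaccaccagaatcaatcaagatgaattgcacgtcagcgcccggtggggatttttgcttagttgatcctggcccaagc
HOXD8: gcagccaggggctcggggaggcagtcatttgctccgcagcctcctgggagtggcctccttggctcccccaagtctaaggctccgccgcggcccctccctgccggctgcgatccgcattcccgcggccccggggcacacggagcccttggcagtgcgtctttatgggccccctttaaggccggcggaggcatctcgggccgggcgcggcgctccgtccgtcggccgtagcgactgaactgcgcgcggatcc
In these stretches CACGTG occurred once each in HOXD13, HOXA9 and HOXD11, and TATAAA in HOXD13 and HOXA9. The stretches of HOXA13 and HOXD8 held neither. In HOXD13 the TATA box overlapped itself on the opposite strand.

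Over the whole windows of HOX members, CACGTG was found in 9 of 27 (33.3%), against 7.26% of all 35116 windows in the table. Members with it were HOXA3, HOXA4, HOXA7, HOXA9, HOXD1, HOXD3, HOXD10, HOXD11 and HOXD13. CCAAT was found in 18 windows (66.7%, against 34.6% of all), TATAAA in 5 (18.5%, against 11.5%), TTTATG, a CDX-type sequence, in 3 (11.1%, against 10.6%) and TGATTNAT, a composite of PBX and HOX sites, in 2 (7.41%, against 2.82%). AGGTCA, a nuclear receptor site, was in 0 of the 27 windows, against 13.8% of all. Both strands were searched, several windows belong to the same gene, and the HOXC4 and HOXC5 windows are the same bases. The median GC content was 58.0% in the HOX windows and 58.7% in all, and the median number of CpG dinucleotides 22 and 14. A match is a run of letters and no measure of binding.

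With DMSO the lines transcribed different HOX codes. SK-N-BE2 used HOXC and HOXD, and its HOXA cluster was all but silent. NGP used HOXA, HOXC and HOXD, and its HOXD cluster was transcribed to the last gene at the posterior end. HOXB was at or near 0 in both. A mean of at least 1 CPM was reached by 13 members in SK-N-BE2 (7 HOXC and 6 HOXD) and by 18 in NGP (5 HOXA, 5 HOXC and 8 HOXD), and 11 of them were shared.

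**Figure D1:**
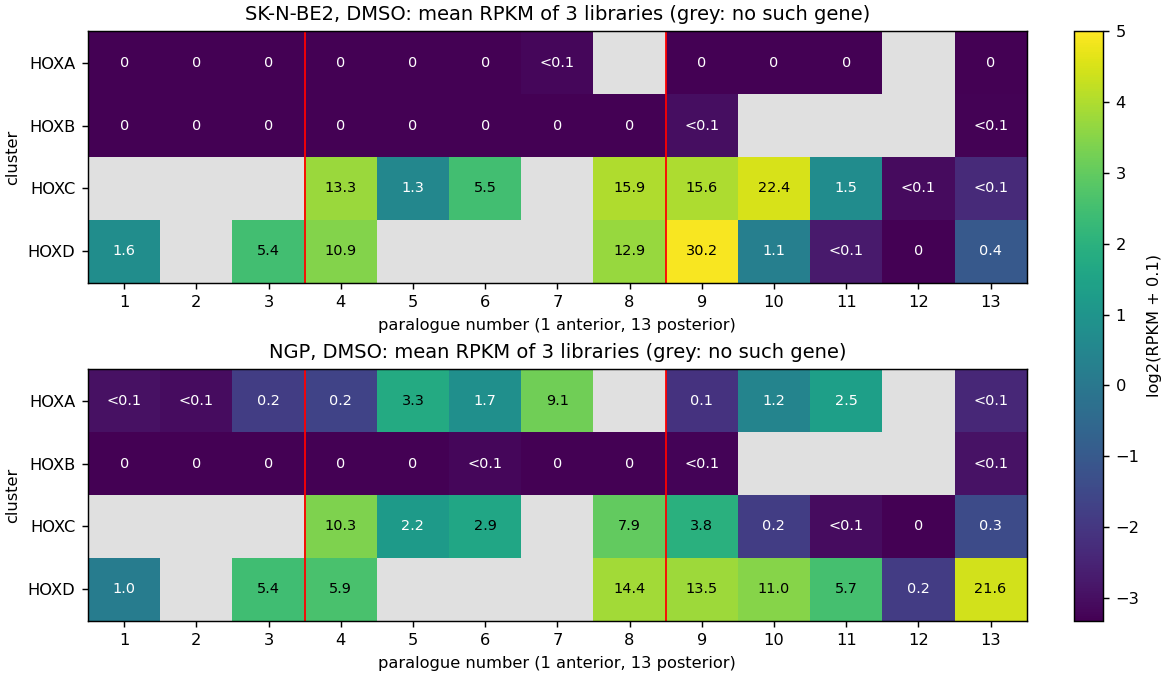
Mean level with DMSO of each HOX member in SK-N-BE2 (top) and NGP (bottom), by cluster (rows) and paralogue number (columns), as RPKM over 3 libraries with colour on a log2(RPKM + 0.1) scale and red lines between the anterior, central and posterior classes. The HOXA row is at or under 0.1 in SK-N-BE2 and reaches 9.11 in NGP, and HOXD13 is 0.406 in SK-N-BE2 and 21.6 in NGP.

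Levels were compared between genes per length, as reads per kilobase of exon on the CPM scale (RPKM). In SK-N-BE2 the highest was HOXD9, a posterior gene known from limb development, with 24.1, 29.0 and 37.4 RPKM in DMSO replicates 1 to 3. HOXC10, a gene of lumbar spinal cord, followed with 19.0, 25.7 and 22.6 RPKM. HOXD9 was the higher of these in each of the 3 libraries, although their ranges overlapped. HOXC8, which marks brachial to thoracic levels, had 14.2, 17.8 and 15.8 RPKM. HOXC9, a determinant of thoracic motor neurons, had 12.5, 14 and 20.2 RPKM, and HOXC4 had 12.7, 13.1 and 14 RPKM. HOXC9 overlapped both HOXC8 and HOXC4, while every library of HOXC8 lay above those of HOXC4. HOXD8 had 11.3, 14.6 and 13 RPKM and HOXD4 had 10.6, 7.67 and 14.6 RPKM. HOXC6, known from forelimb-level motor neurons, had 4.79, 5.16 and 6.46 RPKM. The level then fell along HOXD beyond paralogue 9, to 1.11 ± 0.185 RPKM for HOXD10, 0.0529 ± 0.0114 for HOXD11, 0 for HOXD12 and 0.406 ± 0.0527 for HOXD13 (SD, n = 3).

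In NGP the highest was HOXD13, the last gene of the cluster and one needed for digit development, with 21.8, 19.6 and 23.4 RPKM in DMSO replicates 1 to 3. HOXD8 had 15.6, 12.9 and 14.6 RPKM, HOXD9 had 16.2, 10.6 and 13.7 RPKM, and HOXD10 had 12.4, 10.7 and 9.94 RPKM. HOXD13 lay above the other members in all 3 libraries. HOXD9 overlapped both HOXD8 and HOXD10, and every library of HOXD8 lay above those of HOXD10. HOXC4 had 11.1, 9.70 and 10.1 RPKM and HOXC8 had 8.17, 7.69 and 7.84 RPKM. HOXA7, the highest of the HOXA genes, had 9.67, 8.01 and 9.66 RPKM, and HOXD4 had 5.63, 6.42 and 5.77 RPKM. Of these 8 members 5 were also among the 8 highest in SK-N-BE2, namely HOXC4, HOXC8, HOXD4, HOXD8 and HOXD9.

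The HOXA cluster separated the lines most. No read of 10 of the 11 HOXA genes was counted in any of the 6 SK-N-BE2 libraries, and HOXA7 had 12 reads over those libraries, at most 4 in one. Over the 3 DMSO libraries of NGP, HOXA11, a gene of kidney, forearm and uterus, had 1021 reads against 0 in SK-N-BE2. After scaling that is 354-fold a limit of 3 reads over the group. By the same measure HOXA5, a regulator of lung and neck patterning, was at 298-fold with 859 reads. HOXA10, which patterns lumbar vertebrae and uterus, was at 246-fold with 710 reads. The folds of HOXA6, HOXA3, HOXA13, HOXA9 and HOXA4 over that limit were 113, 42.0, 24.3, 21.5 and 19.8. HOXA7 had 3359 reads against 4, a ratio of 874 with a 95% counting interval of 341 to 3210. All 4 of these SK-N-BE2 reads were in DMSO replicate 3, and without that library the fitted log2 difference of HOXA7 went from -9.63 to -13.15, a value that is no bound since the group was then at 0 reads. Such intervals cover counting error only and are too narrow, since both reads of a pair could be counted. For the same reason the folds over a limit of 3 reads are not strict lower bounds.

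HOXB was read at 5 of its 10 genes. HOXB1, HOXB2, HOXB4, HOXB5 and HOXB8 had 0 reads in all 12 libraries, where 3 reads would amount to 0.0524 to 0.0642 CPM. All HOXB genes together had 17 reads over the 6 libraries of SK-N-BE2 and 72 over those of NGP. HOXB13, a gene of prostate and tail, had most of the NGP reads, at most 16 in one library.

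The baseline was tested with edgeR over the 6 DMSO libraries, SK-N-BE2 against NGP, for the 25 members with enough reads. Of these, 9 were called higher and 14 lower in SK-N-BE2 at an adjusted p under 0.05, and 2, HOXD3 and HOXD8, were not called. Of all genes tested in this comparison 64.8% were called, 33% higher and 31.8% lower, so a call here is common. Of the called members, HOXC13 had libraries that overlapped between lines. The 9 higher in SK-N-BE2 were HOXC4, HOXC6, HOXC8, HOXC9, HOXC10, HOXC11, HOXD1, HOXD4 and HOXD9. The 14 lower were the 8 tested HOXA genes with HOXC5, HOXC13, HOXD10, HOXD11, HOXD12 and HOXD13. By class, 1 of 3 tested anterior members was higher and 1 lower, 4 of 9 central members were higher and 4 lower, and 4 of 13 posterior members were higher and 9 lower.

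Within the posterior class HOXC9 to HOXC11 and HOXD9 were higher in SK-N-BE2, whereas HOXD10 to HOXD13, HOXC13 and the tested HOXA members were higher in NGP. HOXC10 had 8397 reads over the SK-N-BE2 DMSO libraries and 68 over those of NGP, a scaled ratio of 118.6 (95% counting interval 93.5 to 153). HOXC11 had 799 reads against 10, a ratio of 76.7 (41.5 to 161). HOXD11 had 18 reads in SK-N-BE2 and 1836 in NGP, a ratio of 106 in favour of NGP (67.0 to 180). HOXD13 differed by -5.72 on the log2 scale, SK-N-BE2 minus NGP (SE 0.18, edgeR adjusted p 4.59e-09), and HOXD10 by -3.30 (SE 0.18, edgeR adjusted p 9.81e-08). At the other end of the cluster the lines were closer. HOXD3 had 19.8, 14.7 and 23.2 CPM in SK-N-BE2 and 22.2, 15.8 and 19.7 CPM in NGP, and its difference was 0.01 (SE 0.19, edgeR adjusted p 0.953). The called differences of HOXC4 (0.37), HOXC5 (-0.73), HOXD1 (0.65) and HOXC13 (-1.48) lost their call in 3 to 5 of the 6 fits without one library (edgeR adjusted p up to 0.0891, 0.107, 0.0928 and 0.152).

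In SK-N-BE2, STM2457 went with less RNA of most HOXD genes from paralogue 1 to 9 and of HOXC8, and with more of HOXD13. Of the 14 members tested (7 HOXC and 7 HOXD), 2 were called higher, 6 lower and 6 were not called at an edgeR adjusted p under 0.05. Of all genes tested in this line 54.7% were called, 26.9% higher and 27.8% lower, so 8 of 14 is close to the background, and 6 of 14 lower is above it in count only. The median log2 fold change was -0.27 over the 14 members and -0.02 over all genes. With upper-quartile scaling 1 member was called higher and 6 lower. This comparison uses the same DMSO libraries as the baseline comparison, so the 2 are not independent.

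**Figure D2:**
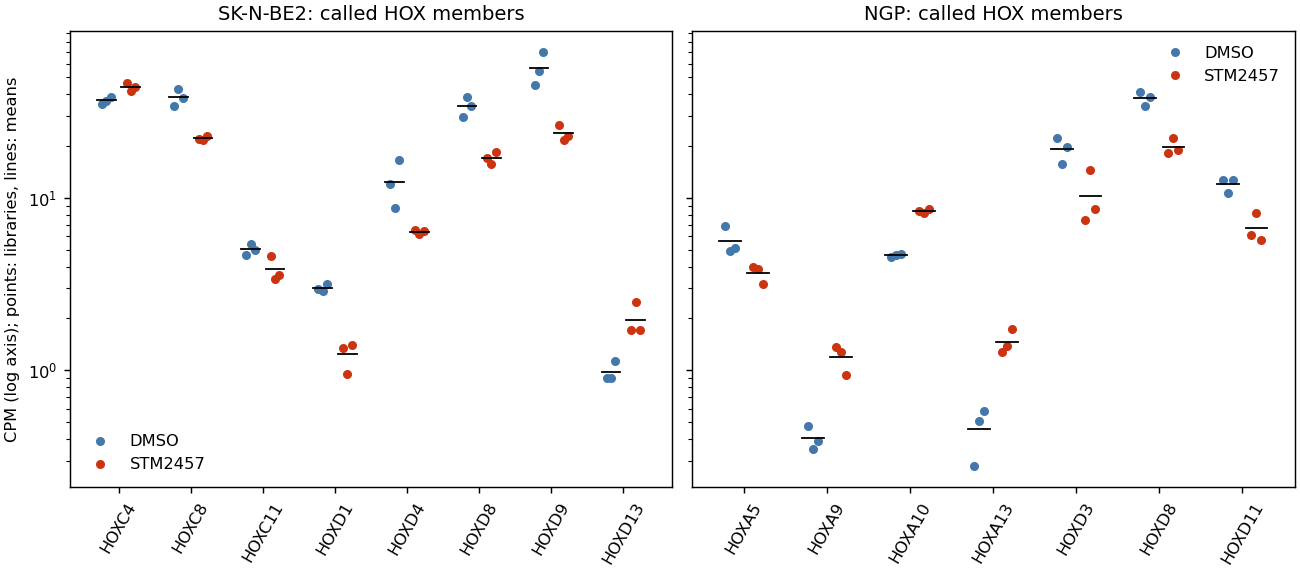
CPM on a log axis of the HOX members called with STM2457 in SK-N-BE2 (left) and NGP (right), 1 point per library and a line at the mean of 3, DMSO in blue and STM2457 in red. HOXD8 falls in both panels, from 34 to 17.0 CPM in SK-N-BE2 and from 37.8 to 19.8 CPM in NGP.

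Among anterior members of SK-N-BE2, HOXD1 had 2.95, 2.90 and 3.15 CPM with DMSO and 1.35, 0.957 and 1.41 CPM with STM2457. The groups were apart, and the log2 change was -1.31 (SE 0.22, edgeR adjusted p 0.000260). HOXD3 was not called (-0.06, SE 0.14, edgeR adjusted p 0.730). Among central members, HOXD4, a gene of hindbrain and neck, had 12.0, 8.72 and 16.5 CPM with DMSO and 6.48, 6.15 and 6.45 CPM with STM2457. Its DMSO replicates were widely spread yet all above the treated ones, and the log2 change was -1.0 (SE 0.19, edgeR adjusted p 0.000479). HOXD8 had 29.6, 38.3 and 34.2 CPM with DMSO and 16.9, 15.6 and 18.6 CPM with STM2457. The treated libraries were 2.05-fold lower in the fit (log2 change -1.04, SE 0.12, edgeR adjusted p 7.17e-06). HOXC8 had 34.2, 43.0 and 38.1 CPM with DMSO and 21.9, 21.7 and 22.7 CPM with STM2457. It too was lower in every treated library, by 1.79-fold (log2 change -0.84, SE 0.10, edgeR adjusted p 1.61e-05).

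HOXC4 was called in the other direction, with 35.0, 36.3 and 38.7 CPM with DMSO and 46.1, 41.8 and 44 CPM with STM2457. Its rise was 1.17-fold (log2 change 0.22, SE 0.09, edgeR adjusted p 0.0409), and the call was lost without any one library except DMSO replicate 3 (adjusted p up to 0.157). HOXC5 and HOXC6 were not called (0.09 and -0.25, edgeR adjusted p 0.737 and 0.118).

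Among posterior members, HOXD9, the highest member of this line, had 45.1, 54.2 and 70.0 CPM with DMSO and 26.3, 21.6 and 22.9 CPM with STM2457. The groups were far apart, a 2.45-fold fall (log2 change -1.30, SE 0.14, edgeR adjusted p 5.38e-06). HOXD13 had 0.909, 0.906 and 1.13 CPM with DMSO and 1.72, 2.48 and 1.71 CPM with STM2457. It rose 1.95-fold from a low level (log2 change 0.97, SE 0.27, edgeR adjusted p 0.00744), and without STM2457 replicate 2 the adjusted p was 0.0525. HOXC11, a gene of the caudal spinal cord, had 4.68, 5.41 and 5.01 CPM with DMSO and 4.60, 3.40 and 3.58 CPM with STM2457. Its groups were close, and the call (log2 change -0.42, SE 0.17, edgeR adjusted p 0.0463) was lost without DMSO replicate 2 or 3 or STM2457 replicate 2 or 3 (adjusted p up to 0.161). HOXC10 was high in both groups, at 45.0, 60.9 and 53.5 CPM with DMSO and 58.1, 51.8 and 58.1 CPM with STM2457, and was not called (0.04, SE 0.11, edgeR adjusted p 0.787). HOXC9 (-0.30) and HOXD10 (0.18) were not called either, at edgeR adjusted p of 0.115 and 0.464. Without DMSO replicate 1, HOXC6 and HOXC9 were called lower as well (edgeR adjusted p 0.0400 and 0.0229).

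In NGP, STM2457 went with more RNA of posterior HOXA genes and less of HOXD3, HOXD8, HOXD11 and HOXA5. Of the 26 members tested (9 HOXA, 1 HOXB, 7 HOXC and 9 HOXD), 3 were called higher, 4 lower and 19 were not called at an edgeR adjusted p under 0.05. Of all genes tested in this line 41.7% were called, 19.4% higher and 22.2% lower, so the 7 of 26 called here are fewer than the background share. The median log2 fold change was 0.10 over the 26 members and -0.03 over all genes. Without DMSO replicate 1, 4 members were called higher and 4 lower, the added one being HOXC5 (edgeR adjusted p 0.00615).

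The 3 members called higher all lie at the posterior end of HOXA. HOXA13, which shapes hand, foot and urogenital tract, had 0.278, 0.509 and 0.583 CPM with DMSO and 1.28, 1.39 and 1.74 CPM with STM2457. It rose 3.15-fold from a low level (log2 change 1.65, SE 0.35, edgeR adjusted p 0.00575). HOXA9, a regulator of blood stem cells that is known from leukaemia, had 0.476, 0.352 and 0.389 CPM with DMSO and 1.37, 1.28 and 0.947 CPM with STM2457. Its rise was 2.89-fold (log2 change 1.53, SE 0.32, edgeR adjusted p 0.00566). HOXA10 had 4.53, 4.66 and 4.75 CPM with DMSO and 8.35, 8.22 and 8.60 CPM with STM2457. The replicates lay close together and the groups apart, a 1.78-fold rise (log2 change 0.83, SE 0.14, edgeR adjusted p 0.00175). HOXA11, which lies between HOXA10 and HOXA13, did not share this direction. It had 6.35, 7.30 and 6.38 CPM with DMSO and 5.47, 5.31 and 5.52 CPM with STM2457, and was not called (-0.32, SE 0.14, edgeR adjusted p 0.106). HOXA10 and HOXA9 share exon sequence with an antisense transcript and with a read-through gene model that had 0 reads in every library.

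HOXA5 was the member of HOXA called lower, with 6.89, 4.89 and 5.10 CPM with DMSO and 3.97, 3.89 and 3.17 CPM with STM2457. Its log2 change of -0.64 (SE 0.20, edgeR adjusted p 0.0303) lost its call without DMSO replicate 3 or any one STM2457 replicate (adjusted p up to 0.118). HOXA7, the highest HOXA gene, had 23.3, 19.3 and 23.3 CPM with DMSO and 24.5, 32.1 and 24.1 CPM with STM2457. It was not called (0.27, SE 0.15, edgeR adjusted p 0.181), although its treated libraries lay above the DMSO ones.

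In HOXD of NGP, HOXD3 had 22.2, 15.8 and 19.7 CPM with DMSO and 7.45, 14.4 and 8.66 CPM with STM2457. The groups were apart by a small margin at STM2457 replicate 2, and the log2 change was -0.94 (SE 0.25, edgeR adjusted p 0.0155). The call was lost without STM2457 replicate 1 or 3 (adjusted p up to 0.0614). HOXD8 had 41.0, 33.9 and 38.5 CPM with DMSO and 18.3, 22.2 and 19.0 CPM with STM2457. It fell 1.94-fold (log2 change -0.96, SE 0.12, edgeR adjusted p 0.000574). HOXD11, a partner of HOXA11 in forearm and kidney, had 12.6, 10.7 and 12.7 CPM with DMSO and 6.07, 8.19 and 5.72 CPM with STM2457. It fell 1.84-fold (log2 change -0.88, SE 0.17, edgeR adjusted p 0.00426), while HOXD10, HOXD12 and HOXD13 were not called. HOXD10 had 33.4, 28.9 and 26.8 CPM with DMSO and 30.1, 31.8 and 29.6 CPM with STM2457 (0.01, SE 0.12, edgeR adjusted p 0.937). HOXD13, the highest member of this line, had 52.6, 47.4 and 56.5 CPM with DMSO and 56.1, 58.0 and 53.9 CPM with STM2457 (0.08, SE 0.10, edgeR adjusted p 0.589). The groups of HOXD10 and HOXD13 overlapped. HOXD12, which lies between HOXD11 and HOXD13, had 0.464 ± 0.0409 CPM with DMSO and 0.698 ± 0.166 CPM with STM2457 (SD, n = 3). Its log2 change was 0.56 (SE 0.34, edgeR adjusted p 0.227). HOXD10 and HOXD11 share exon sequence.

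No HOXC member was called in NGP by edgeR out of 7 tested. HOXC4, HOXC6 and HOXC8 had log2 fold changes of 0.12, -0.09 and 0.11 (edgeR adjusted p 0.437, 0.649 and 0.428). HOXC10 had 0.377, 0.333 and 0.622 CPM with DMSO and 0.961, 1.73 and 0.572 CPM with STM2457. Its groups overlapped and its edgeR adjusted p was 0.0622, and it was called higher with DESeq2, in a joint fit of all libraries and without STM2457 replicate 3 (adjusted p 0.0291, 0.00925 and 0.0335). Among members not called in this line, HOXA7, HOXB13, HOXC8, HOXC13 and HOXD12 had all STM2457 libraries above all DMSO libraries. HOXA11 had them all below, and the other members not called had overlapping groups. The share of all genes with such separation was not counted, so this is no result about HOX members.

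**Figure D3:**
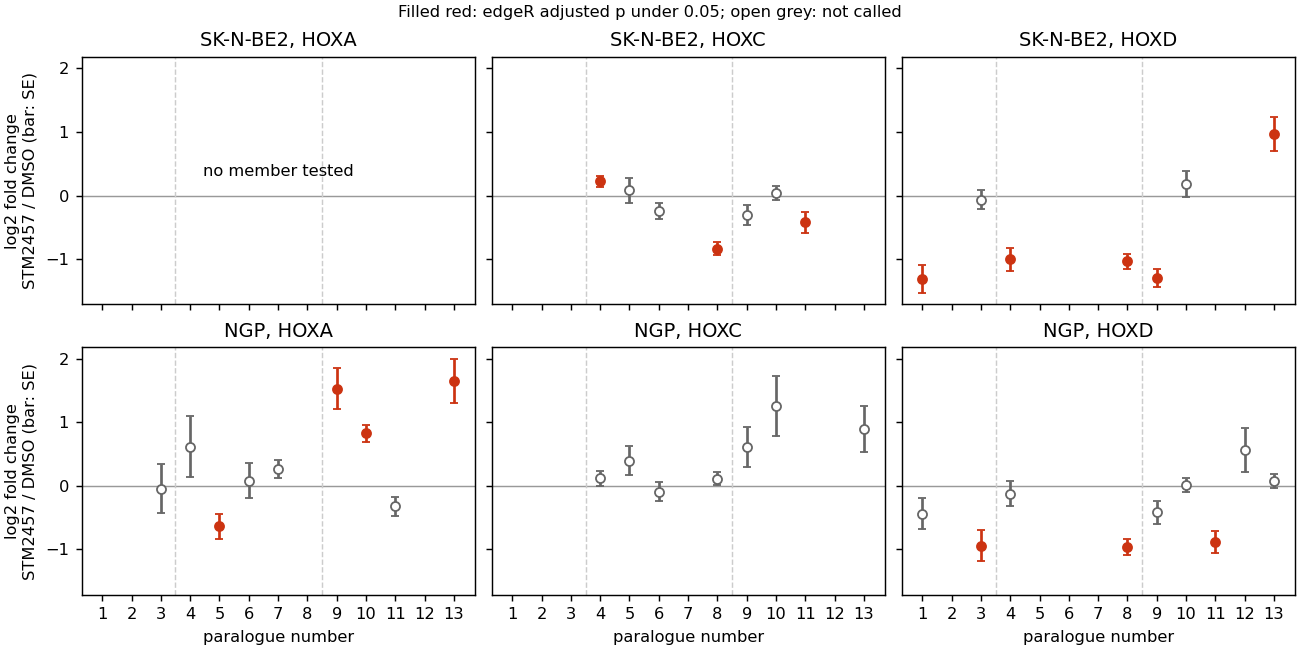
Log2 fold change of STM2457 against DMSO (bars, SE) for each tested HOXA, HOXC and HOXD member along its cluster, SK-N-BE2 above and NGP below, with dashed lines between the anterior, central and posterior classes and filled red points for an edgeR adjusted p under 0.05. HOXD8 is filled and near -1 in both lines (-1.04 and -0.96), HOXA9, HOXA10 and HOXA13 are filled above 0 in NGP, and no HOXA member was tested in SK-N-BE2.

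By class, the posterior members did not move as one in either line. In SK-N-BE2, 0 of 2 tested anterior members were called higher and 1 lower, 1 of 6 central members higher and 3 lower, and 1 of 6 posterior members higher and 2 lower. The median log2 fold changes were -0.69, -0.54 and -0.13 in that order. In NGP, 0 of 3 anterior members were called higher and 1 lower, 0 of 10 central members higher and 2 lower, and 3 of 13 posterior members higher and 1 lower. The medians there were -0.44, 0.10 and 0.61, of which the posterior one includes members near the detection limit. These are descriptions of few genes, and the difference between classes was not tested.

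The summed level per length describes the same libraries without a test. In SK-N-BE2 the HOX genes summed to 121, 137 and 157 RPKM with DMSO and to 108, 95.8 and 102 RPKM with STM2457, 73.7% of the DMSO mean. HOXD made the difference, with 54.7, 58.2 and 75.0 RPKM against 34.8, 31.2 and 32.4 RPKM, or 52.4% of the DMSO mean. HOXC summed to 91.4% of its DMSO mean. HOXD thus made up 45.2% ± 2.66 of the HOX total with DMSO and 32.2% ± 0.404 with STM2457 (SD, n = 3). In NGP the total was 125 ± 11.1 RPKM with DMSO and 119 ± 13.6 RPKM with STM2457, and the libraries overlapped. There HOXD made up 63.1% ± 0.172 with DMSO and 54.9% ± 0.904 with STM2457, HOXC 22.1% ± 0.582 and 27.6% ± 0.994, and HOXA 14.8% ± 0.403 and 17.5% ± 0.182. The anterior members of NGP, of which HOXD3 was the highest, summed to 7.25, 5.92 and 6.84 RPKM with DMSO and 3.03, 5.22 and 3.56 RPKM with STM2457.

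The posterior share of the HOX total was 51.4% ± 2.41 with DMSO and 51.6% ± 0.754 with STM2457 in SK-N-BE2, with overlapping libraries. In NGP it was 48.2% ± 0.628 and 50.8% ± 0.726, with all treated libraries above all DMSO libraries. With 3 libraries against 3 an exact test cannot go below 0.10, so none is given. The share depended on which members were summed. Without the 17 members of uncertain value it was 72.2% with DMSO and 77.6% with STM2457 in SK-N-BE2, and in NGP 69.6% with DMSO and 71.2% with STM2457.

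**Figure D4:**
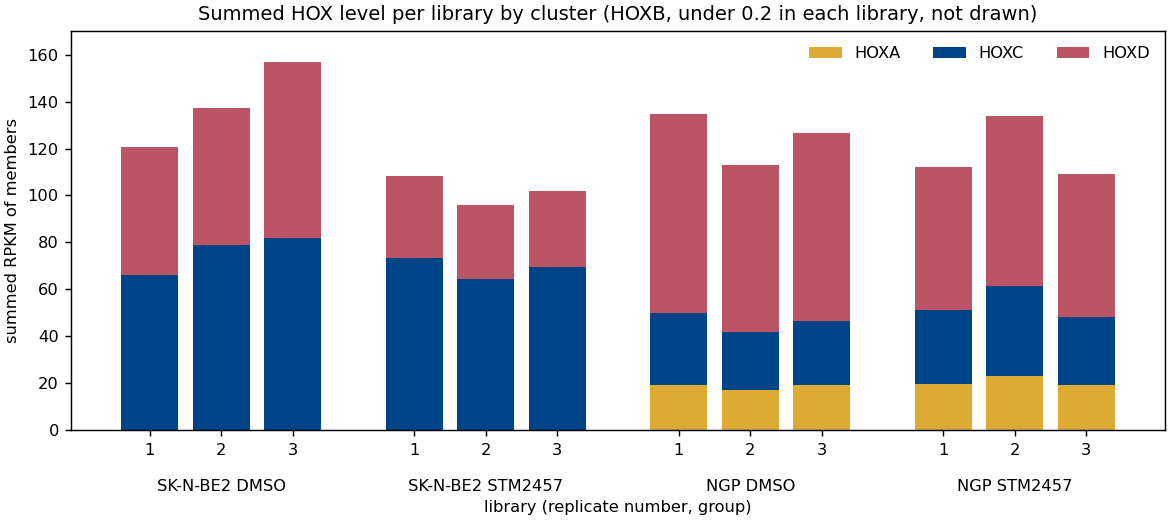
Summed RPKM of HOX members in each of the 12 libraries, stacked by cluster (HOXA, HOXC and HOXD; HOXB summed to under 0.2 RPKM in each library and is not drawn). The HOXD part of the 3 SK-N-BE2 STM2457 libraries is 31.2 to 34.8, below the 54.7 to 75.0 of the DMSO libraries, and HOXA is visible in NGP only.

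Of the 13 members tested in both lines, SK-N-BE2 had 7 calls and NGP had 2, and HOXD8 was the one called in both. That is 14.3% of these calls in SK-N-BE2 and 50% of those in NGP, against 47.6% and 63.0% over the 12952 genes of any kind tested in both. HOXD8 fell in both, and its response did not differ by test between the lines (difference -0.07, SK-N-BE2 minus NGP, 95% interval -0.41 to 0.27 from its SE, edgeR adjusted p 0.814). HOXC4 and HOXC6 had differences of 0.12 (-0.15 to 0.39) and -0.14 (-0.54 to 0.26), also not called.

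The difference of the responses (SK-N-BE2 minus NGP) between the lines was tested over all 12 libraries for 27 members. For 10 of them a group was at 0 reads, 8 of these being HOXA genes unread in SK-N-BE2, so no difference could be estimated there, which leaves 17. Of these, 2 were called with a positive difference and 4 with a negative one. Of all genes tested in this comparison 30.9% were called, 17% positive and 13.9% negative. That share leaves in genes with a group at 0 reads. Its counterpart is therefore 6 of the 27 members tested, which is below it, and not 6 of 17. With upper-quartile scaling 1 was positive and 5 were negative.

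HOXC8 was called lower in SK-N-BE2 (-0.84 on the log2 scale) and was not called in NGP (0.11). In NGP its libraries were at 19.8, 18.6 and 19.0 CPM with DMSO and 20.5, 22.3 and 20.3 CPM with STM2457. The difference was -0.94 (SE 0.14, edgeR adjusted p 0.000249), and it was called in each of the 12 fits without one library. HOXD13 rose in SK-N-BE2, where it was low, and had 0.08 in NGP, where it was the highest member. That difference was 0.90 (SE 0.21, edgeR adjusted p 0.00525), also called in each of the 12 fits. HOXD9 had 30.3, 19.8 and 25.7 CPM with DMSO and 17.8, 23.0 and 17.2 CPM with STM2457 in NGP, with overlapping groups (-0.41, edgeR adjusted p 0.10). Its difference was -0.87 (SE 0.25, edgeR adjusted p 0.0185), and without NGP STM2457 replicate 2 the adjusted p was 0.0511.

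The other 3 calls were lost more often when a library was left out. HOXD4 had 6.39, 7.30 and 6.55 CPM with DMSO and 5.06, 8.04 and 5.82 CPM with STM2457 in NGP, with overlapping groups. Its difference of -0.87 (SE 0.30, edgeR adjusted p 0.0419) was lost in 8 of the 12 fits without one library (adjusted p up to 0.113). In SK-N-BE2 HOXD3 had 19.8, 14.7 and 23.2 CPM with DMSO and 21.2, 18.3 and 17.1 CPM with STM2457, and its groups overlapped too. Its difference of 0.89 (SE 0.32, edgeR adjusted p 0.0480) and that of HOXC10, -1.20 (SE 0.42, edgeR adjusted p 0.0414), were each lost in 9 of those fits (adjusted p up to 0.117 and 0.152). HOXD1 was not called for the difference (-0.87, SE 0.32, edgeR adjusted p 0.0551), although it was called in SK-N-BE2 alone.

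Proteins that act with HOX factors were examined as a list of 9 TALE homeodomain genes. In SK-N-BE2, 3 of 8 tested were called higher and 1 lower (edgeR, median log2 fold change 0.12), and in NGP 2 of 9 were called higher and 2 lower (median 0.11). Over all genes 54.7% and 41.7% were called in that order, so these counts are near the background. MEIS1, a cofactor of posterior HOX proteins in blood, rose from 26.7 ± 1.69 to 42.4 ± 2.08 CPM in SK-N-BE2 and from 57.9 ± 2.51 to 115 ± 4.48 CPM in NGP (SD, n = 3). Its responses in the 2 lines were not called different (-0.32, SE 0.12, edgeR adjusted p 0.0539). MEIS3 rose by 0.68 in SK-N-BE2 and had -0.46 in NGP, where it was not called, a called difference of 1.15 (SE 0.19). PKNOX2 fell in NGP by 0.81 (edgeR adjusted p 0.0252), a call lost in 5 of the 6 fits without one library (adjusted p up to 0.0908).

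Chromatin regulators of the clusters, Polycomb and Trithorax proteins and their partners, were a list of 25 genes. In SK-N-BE2, 7 were called higher and 7 lower (median -0.05), and in NGP 5 higher and 7 lower (median -0.10). The shares called over all genes were 54.7% and 41.7% in that order. PHC2, a subunit of Polycomb repressive complex 1, rose by 0.73 in SK-N-BE2 and fell by 0.54 on the log2 scale in NGP, and its difference was called (1.28, SE 0.14). MLLT3, a reader of histone acylation, rose by 0.71 in SK-N-BE2 and 0.61 in NGP. KDM6B, which removes the Polycomb mark from histone H3, was called lower in both lines, with log2 values of -1.53 in NGP and -0.38 in SK-N-BE2. In SK-N-BE2 its groups overlapped, at 83.1 to 133 CPM with DMSO and 84.3 to 93.3 CPM with STM2457 (edgeR adjusted p 0.0269). Its difference was called (1.17, SE 0.21). CBX7 had -0.86 in NGP.

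Signals upstream of the clusters were a list of 22 genes of retinoic acid, GDF and CDX pathways. Of 10 tested in SK-N-BE2, 2 were called higher and 4 lower (median -0.25), against 54.7% of all genes called. Of 12 tested in NGP, 5 were called higher and 3 lower (median 0.34), against 41.7%. CRABP2, which carries retinoic acid to its receptor, moved in opposite directions. It fell from 209 ± 13.6 to 84.8 ± 7.54 CPM in SK-N-BE2 and rose from 10.0 ± 2.78 to 53.3 ± 6.89 CPM in NGP (SD, n = 3), a called difference of -3.72 (SE 0.23). GDF11, a ligand that sets posterior axial level, rose by 0.90 in SK-N-BE2 and 0.72 in NGP. RARA, a retinoic acid receptor, fell by 0.58 on the log2 scale in SK-N-BE2. In NGP, CYP26B1, which degrades retinoic acid, fell by 1.72, and CRABP1 by 1.01, the latter call lost without STM2457 replicate 2 (edgeR adjusted p 0.0546). CRABP1 rose by 0.55 in SK-N-BE2 (edgeR adjusted p 0.000363), and its difference between the lines was called as well (1.56, SE 0.28).

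Protein-coding genes that flank the clusters were a list of 19. Of 13 tested in SK-N-BE2, 4 were called higher and 3 lower (median 0.05), against 54.7% of all genes called. Of 14 tested in NGP, 3 were called higher and 3 lower (median 0.11), against 41.7%. CALCOCO2, an autophagy receptor gene beside HOXB, fell by 1.42 in SK-N-BE2 and 0.72 in NGP on the log2 scale, from DMSO levels of 95.9 ± 9.27 and 81.0 ± 2.17 CPM (SD, n = 3), while the HOXB genes were at or near 0. CBX5 beside HOXC, which encodes a heterochromatin protein, rose by 0.87 in SK-N-BE2, and HNRNPA3 beside HOXD by 0.62. SKAP2 beside HOXA rose by 0.98 in NGP, and SNX10 on the same side fell by 0.74 on the log2 scale. In SK-N-BE2, where the HOXA genes next to it were all but unread, SKAP2 was not called (-0.37, edgeR adjusted p 0.346).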

How the data were processed

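Samples were grouped by the line and treatment in their titles. Reads were assigned to genes by the authors with featureCounts 2.0.5, per the file headers, on exons grouped by gene name, for protein-coding genes of GENCODE 33 on GRCh38, with paired input but no counting of pairs and no strand option. The deposited values are whole-number counts, not normalized. The submitters' processing notes also name FastQC 0.11.5, Trimmomatic 0.36, HISAT2 2.1.0 and Subread 1.5.3, a version other than that of the headers. Multi-mapping and ambiguous reads were not counted, which lowers counts of overlapping genes, and 72.1% to 75.4% of counts from 1 to 20 were even, since both reads of a pair could be counted.

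Each line, the DMSO baseline and the difference of responses were fitted with edgeR 4.0.16 (R 4.3.3) by the quasi-likelihood test on all genes that passed filterByExpr (minimum count 10), with TMM scaling, Benjamini-Hochberg adjustment over all genes tested and a threshold of 0.05. An SE is the size of a log2 change over the square root of its F value. CPM and RPKM were scaled over all 12 libraries, RPKM by the exon length in the files. A group at 0 reads was set against 3 reads over the group. Exon overlap was measured in GENCODE 44, with members over 10% called uncertain. Values per library are given for the 8 members of highest RPKM in each line with DMSO and for each member called with STM2457 or for the difference that reached 1 CPM in a group, with some others chosen after their values were seen, and up to 3 called genes per other list and line. The members and lists were chosen with earlier results of these data known. Some genes these rules name are not reported here. The fits were tested on simulated data.

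Alternatives were DESeq2 1.42.0, other scalings and filters, robust dispersion, a minimum fold change, halved counts, a joint fit, a replicate block, leaving out each library, and other class limits.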

Additional observations from a re-analysis of the deposited data

Results flagged for a closer look

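For 6 HOX members the response to STM2457 differed between the lines in the edgeR test of the difference itself (log2 scale, SK-N-BE2 minus NGP). Line, dose and the grouping in the file headers cannot be told apart. HOXC8 differed by -0.94 and HOXC10 by -1.20, HOXD4 and HOXD9 both by -0.87, HOXD3 by 0.89 and HOXD13 by 0.90. HOXD13, HOXC8 and HOXD9 had SEs of 0.21, 0.14 and 0.25, and HOXC10, HOXD3 and HOXD4 of 0.42, 0.32 and 0.30.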

How the results depend on the processing

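In SK-N-BE2 no HOXA or HOXB member had enough reads for a test of the response in that line. Of HOXB in NGP only HOXB13 did. HOXA13, HOXA9 and HOXC13 rested on few reads. The groups held 3 replicates each. A minimum log2 change of 1 in either direction (glmTreat) left 0 HOX calls in SK-N-BE2, 0 in NGP and 0 for the difference. At an unadjusted p under 0.05 these were 2, 2 and 0. At baseline 15 HOX calls remained. Of all genes, that setting left 707 of 14013, 738 of 13610 and 628 of 14731 called, and 3980 of 14336 at baseline. Without one library the counts of calls ran from 5 (STM2457 replicate 2) to 9 in SK-N-BE2, 5 to 8 in NGP, 20 to 22 at baseline and 3 to 5 for the difference, 3 being reached without SK-N-BE2 STM2457 replicate 1, 2 or 3 or NGP STM2457 replicate 2. Over all genes those counts ran from 6497 to 7849 in SK-N-BE2, 3816 to 7897 in NGP, 8298 to 10384 at baseline and 3701 to 6274 for the difference. Same-numbered samples did not deviate together (correlations from -0.175 to 0.153 in SK-N-BE2, -0.217 to 0.111 in NGP and -0.537 to -0.167 at baseline). The replicate block gave 6, 7, 19 and 3 HOX calls in SK-N-BE2, NGP, baseline and difference, against 7522, 5026, 8153 and 4025 over all genes. Of the difference calls the block kept HOXC8, HOXD13 and HOXD4 and lost HOXD9, HOXD3 and HOXC10 (adjusted p 0.0507, 0.0716 and 0.0897). The posterior share in SK-N-BE2 DMSO, SK-N-BE2 STM2457, NGP DMSO and NGP STM2457 moved to 76.4%, 71.6%, 77.0% and 77.8% with paralogues 6 to 13 counted, and to 72.2%, 77.6%, 69.6% and 71.2% without uncertain members. From CPM it was 46.6%, 46.3% and 46.8% in the first 3 of these groups. The shares ran from 50.5% to 52.8%, 51.2% to 51.9%, 48.0% to 48.6% and 50.4% to 51.0% in these groups without one library.

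Signs turned for uncalled members only. With upper-quartile scaling HOXC10 in SK-N-BE2 was -0.012. Without one library at a time, the log2 values in SK-N-BE2 ran from -0.070 to 0.15 for HOXC10, -0.22 to 0.088 for HOXD3 and -0.019 to 0.18 for HOXC5. In NGP they ran from -0.070 to 0.41 for HOXA6, -0.058 to 0.10 for HOXD10, -0.35 to 0.22 for HOXA3, -0.31 to 0.0097 for HOXD4 and -0.17 to 0.0024 for HOXC6. For the difference they ran from -0.19 to 0.020 for HOXD8, -2.47 to 0.11 for HOXC13 and -0.11 to 0.44 for HOXD11, and at baseline from -0.13 to 0.18 for HOXD3. The cause was not tested. Of 1764 values of single genes under an alternative, 1598 kept direction and side of the threshold, 131 lost their call, 14 gained one and 21 turned sign.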
